A study of Mus musculus with 3 samples.

Results

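The 8 genes Ttr, Wfdc2, Enpp2, Kl, Folr1, Prlr, Htr2c and Otx2 are known as genes of the choroid plexus epithelium that encode secreted proteins, receptors for hormones and other ligands, and a transcription factor. They were taken by symbol from the feature list of 1 single-cell library, and all 8 of 8 were found among its 21750 features, each under 1 gene identifier. The library was made from hippocampal cells pooled from 5 mice that carry Aldh1l1CreERT2, a tamoxifen-inducible Cre driven by a promoter active mainly in astrocytes, and the Cre-dependent reporter Rosa26-LSL-tdTomato. All mice had received a Cre-dependent AAV-TIGRi-Hopx vector with EGFP in the hippocampus, which is meant to lower the homeobox gene Hopx, and cells were sorted for tdTomato and EGFP 3 weeks after tamoxifen. No library without the vector was analysed here, and the anti-flag and IgG chromatin samples of the series, which has 3 samples in all, were not analysed here. With 1 library of pooled mice there was no replicate, so no test across samples was possible, no p-value is given, and every interval covers counting error only.

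The choroid plexus is a folded sheet of epithelium in the brain ventricles that makes cerebrospinal fluid and releases carrier proteins, enzymes and growth factors into it. Its epithelial cells also take up hormones and vitamins from the blood, folate and prolactin among them, and carry them or their signals to the brain. The sheet is continuous with the ependyma, the ciliated lining of the ventricles, and OTX2 is a homeobox factor needed for its formation in the mouse.

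Choroid plexus cells were gated by at least 2 unique molecular identifiers (UMIs, each counting 1 captured RNA molecule) of Clic6 and Kcnj13 together, and neither is among the 8 genes. Of 6672 barcodes, 6485 had at least 500 genes and at most 15% mitochondrial UMIs, and 672 of these passed this gate. They held 7770317 UMIs with a median of 11111 per cell. The cells used as the measure of free RNA were 2219 microglia-gated cells, with a median of 6436 UMIs, and the most closely related epithelium was given by 472 ependymal-gated cells, with a median of 5115.5 UMIs. The other gates held 1342 endothelial, 297 border macrophage, 145 astrocyte, 81 oligodendrocyte, 55 B, 24 T or NK, 23 neuron, 9 fibroblast and 8 mural cells, while 765 barcodes passed several of these gates and 373 passed none.

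The gate was set against other choroid plexus markers, with a ratio of at least 4 as the threshold. Both the gate and the list of markers were chosen with earlier results of these data known. The counts therefore describe the gated cells and are not an independent test of the gate. All 12 genes of a list of choroid plexus epithelium markers outside the gate were at least 4-fold higher in choroid plexus-gated than in microglia-gated cells, against 19.5% of all genes tested. In choroid plexus-gated over ependymal-gated cells it was 10 of the 12, against 5.29% of all genes tested. Of the 672 cells, 457 also passed another gate, 392 of them the ependymal and 151 the astrocyte gate. The genes behind this were the cilium genes Dynlrb2, Tekt1 and Cfap126, with a UMI in 64.4%, 63.7% and 57.6% of choroid plexus-gated cells, and the amino acid transporter gene Slc7a10, with a UMI in 63.1%. The ependymal markers Ccdc153 and Tmem212 were seen in 5.65% and 5.51% of the same cells, with 316 UMIs in 38 cells and 450 UMIs in 37 cells. Scrublet called 64 of the 672 cells doublets, and these were kept. With called doublets removed, the levels of the 8 genes were 1.02 to 1.05 times as high. Whether the cells with Ccdc153 or Tmem212 UMIs were ependymal cells or doublets was not tested. When the 457 cells were left out, the levels of the 8 genes in the remaining 215 cells were 0.812 to 1.16 times those in all 672.

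Upstream sequences are shown for 5 of the 8 genes, because the 8 were high in the same cells and 1 of them encodes a DNA-binding factor. Bases before the outermost transcript start were read from RefSeq on GRCm38.p6, while the counts were made on GRCm39; Ttr, Folr1 and Enpp2 are named only. The windows are chr2:164562465-164562714 on the plus strand for Wfdc2, chr5:150952357-150952606 (plus) for Kl, chr15:10176988-10177237 (plus) for Prlr, chrX:146962263-146962463 (plus, ending before the annotated gene) for Htr2c and chr14:48667645-48667894 (minus) for Otx2. Each is written 5′ to 3′ along its gene, and capitals mark CCAAT or its reverse complement ATTGG.
Wfdc2: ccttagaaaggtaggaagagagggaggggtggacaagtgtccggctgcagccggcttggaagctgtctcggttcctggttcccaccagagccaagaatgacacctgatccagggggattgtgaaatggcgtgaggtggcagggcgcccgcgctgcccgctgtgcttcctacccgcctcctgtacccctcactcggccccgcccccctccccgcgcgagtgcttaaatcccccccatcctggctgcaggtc
Kl: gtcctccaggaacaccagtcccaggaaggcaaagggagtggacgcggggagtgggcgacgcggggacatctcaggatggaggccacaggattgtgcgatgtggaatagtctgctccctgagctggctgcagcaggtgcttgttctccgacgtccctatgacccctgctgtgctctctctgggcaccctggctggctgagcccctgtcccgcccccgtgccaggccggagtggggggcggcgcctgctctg
Prlr: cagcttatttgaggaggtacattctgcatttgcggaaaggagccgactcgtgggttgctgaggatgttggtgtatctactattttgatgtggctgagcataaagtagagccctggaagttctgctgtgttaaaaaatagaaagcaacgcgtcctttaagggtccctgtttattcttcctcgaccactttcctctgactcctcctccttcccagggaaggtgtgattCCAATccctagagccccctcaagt
Htr2c: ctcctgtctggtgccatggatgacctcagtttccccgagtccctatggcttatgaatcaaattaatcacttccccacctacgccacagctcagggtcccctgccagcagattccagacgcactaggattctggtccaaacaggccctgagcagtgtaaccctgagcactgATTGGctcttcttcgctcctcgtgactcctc
Otx2: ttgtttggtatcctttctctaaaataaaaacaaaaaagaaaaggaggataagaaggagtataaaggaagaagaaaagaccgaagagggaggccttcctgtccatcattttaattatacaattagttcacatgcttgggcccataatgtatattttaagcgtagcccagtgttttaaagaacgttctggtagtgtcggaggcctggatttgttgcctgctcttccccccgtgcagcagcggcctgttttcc
The letters TAATCC, the core motif of OTX factors, were searched on both strands and were in none of these windows. Over every transcript start that the table lists for these genes, 1 of 11 windows of 250 bases held TAATCC, an inner start of Otx2, against 6.25% of all 32851 windows. CCAAT was in 3 of the 11 windows, against 33.8% of all windows. Some of the 11 windows overlap, a TAATCC and a CCAAT can share their 2 C bases, and a match or its lack is a description of these letters only.

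The 8 genes were far higher in choroid plexus-gated than in microglia-gated cells, by ratios of 626 to 1645, and all 8 passed a 4-fold threshold with at least 20 UMIs over both groups. Of the 12724 genes with that many UMIs, 19.5% passed it in the same direction and 21.0% in the other. Against ependymal-gated cells all 8 passed too, where 5.29% of 12270 genes did, but 2 of the 8, Folr1 and Otx2, stood apart with ratios of 5.15 and 6.80. The other 6 had ratios of 209 to 583. Levels are UMIs per 1000000 UMIs of the group (CPM), are not divided by transcript length, and are compared between cell groups and not between genes.

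**Figure D1:**
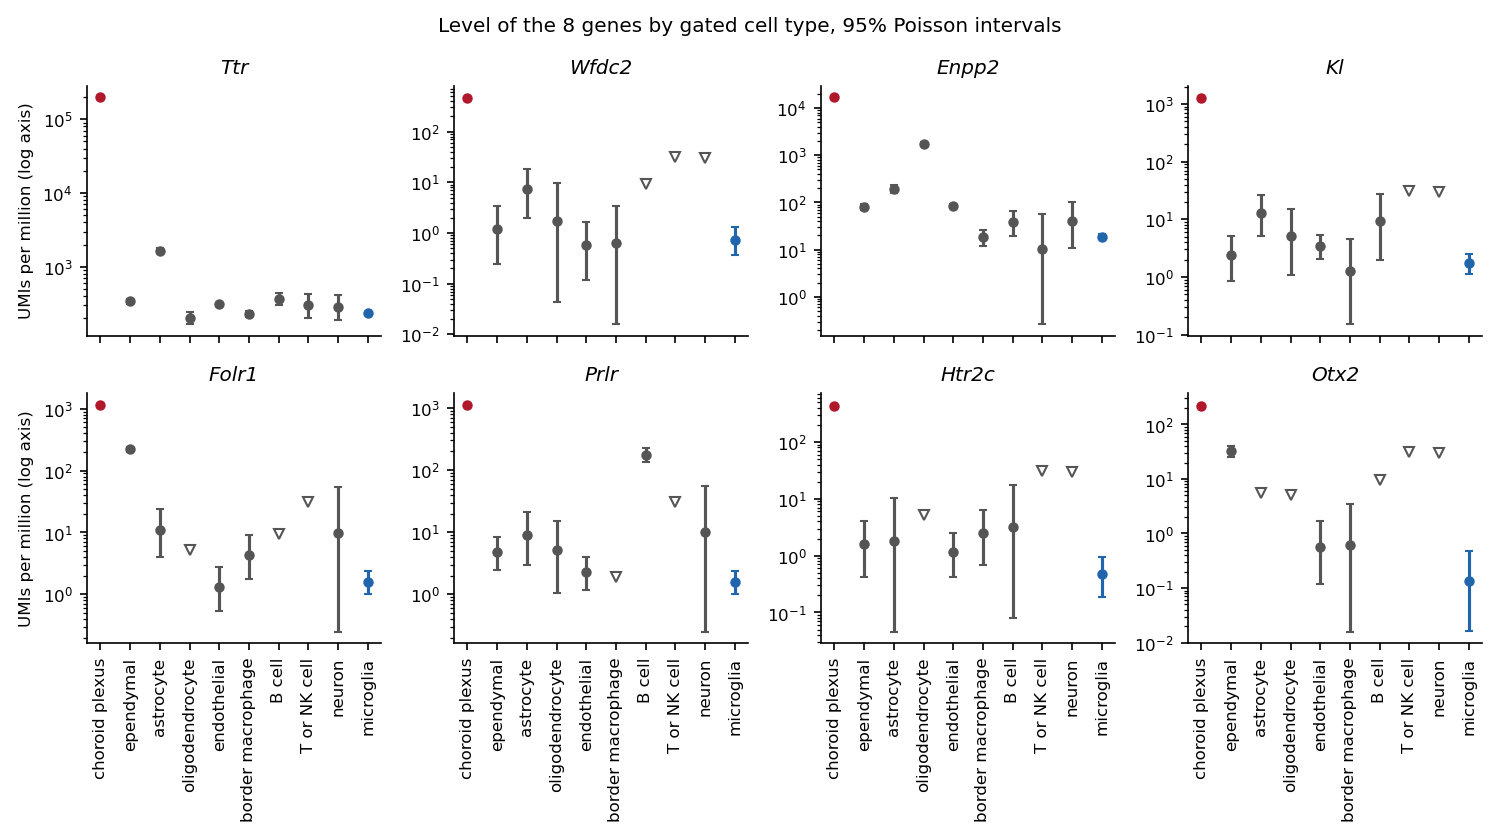
Level of each of the 8 genes in CPM (log axis) by gated cell type, with choroid plexus-gated cells in red, microglia-gated cells in blue and other types in grey. Bars are exact 95% Poisson intervals, and an open triangle is the level that 3 UMIs would give where none was seen. Each gene is highest in choroid plexus-gated cells, and Folr1 and Otx2 are next in ependymal, Enpp2 in oligodendrocyte and Prlr in B cell-gated cells.

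Among the secreted proteins, Ttr encodes transthyretin, the carrier of thyroid hormone and, with retinol-binding protein, of retinol. It had 197788 CPM in choroid plexus-gated cells, which is 1536875 UMIs, against 339 CPM in ependymal-gated and 233 CPM in microglia-gated cells. A Ttr UMI was present in 669 of 672 choroid plexus-gated cells and in 70.7% of microglia-gated cells, or in 98.5% and 34.3% once each cell was thinned to 2000 UMIs. The ratio of choroid plexus-gated to microglia-gated cells was 848 (95% interval 820 to 877). In 10 of the 11 other gated types Ttr lay between 201 CPM in oligodendrocyte-gated and 372 CPM in B cell-gated cells. Astrocyte-gated cells, the exception, had 1661 CPM, but 753 of their 913 Ttr UMIs were in 2 cells, and without these the level was 293 CPM.

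Wfdc2 encodes a small secreted protein with whey acidic protein (WAP) domains of the protease inhibitor kind. It had 460 CPM in choroid plexus-gated cells, against 1.18 CPM (3 UMIs) in ependymal-gated and 0.734 CPM (11 UMIs) in microglia-gated cells. Its UMIs were seen in 91.2% of choroid plexus-gated cells and in 0.496% of microglia-gated cells, and the ratio of these groups was 626 (350 to 1256).

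Enpp2 encodes autotaxin, the secreted enzyme that makes lysophosphatidic acid. It had 16771 CPM in choroid plexus-gated cells, against 80.3 CPM in ependymal-gated and 18.8 CPM in microglia-gated cells, a ratio to microglia-gated cells of 891 (793 to 1005). The next highest group was oligodendrocyte-gated cells at 1756 CPM (1650 to 1867), with an Enpp2 UMI in 79 of 81 cells. Choroid plexus-gated cells had Enpp2 UMIs in 97.8% of cells and microglia-gated cells in 10.7%.

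Among the receptors and hormone genes, Kl encodes klotho, a membrane protein that acts as co-receptor for the hormone FGF23 and is also shed as a soluble hormone. It had 1274 CPM in choroid plexus-gated cells, against 2.36 CPM (6 UMIs) in ependymal-gated and 1.74 CPM (26 UMIs) in microglia-gated cells. The ratio to microglia-gated cells was 734 (501 to 1124), and a Kl UMI was in 96.1% of choroid plexus-gated and 1.13% of microglia-gated cells.

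Folr1 encodes folate receptor alpha, which binds folate and carries it across the choroid plexus epithelium. It had 1135 CPM in choroid plexus-gated cells, 220 CPM (203 to 240) in ependymal-gated and 1.60 CPM (24 UMIs) in microglia-gated cells. The ratio was 5.15 (4.72 to 5.61) to ependymal-gated and 708 (476 to 1106) to microglia-gated cells. A Folr1 UMI was in 97.5% of choroid plexus-gated cells, 61.0% of ependymal-gated cells and 0.856% of microglia-gated cells, so the ependymal share was far above the share in cells that should lack the gene.

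Prlr encodes the prolactin receptor, through which prolactin acts on the choroid plexus and is thought to be taken up into the fluid. It had 1106 CPM in choroid plexus-gated cells, against 4.72 CPM (12 UMIs) in ependymal-gated and 1.60 CPM (24 UMIs) in microglia-gated cells, a ratio to microglia-gated cells of 691 (464 to 1078). The second group was the 55 B cell-gated cells at 176 CPM (133 to 229), with a Prlr UMI in 28 cells and no more than 8 in any one.

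Htr2c encodes the serotonin receptor 2C, a G protein-coupled receptor long known to be dense on this epithelium. It had 437 CPM in choroid plexus-gated cells, against 1.57 CPM (4 UMIs) in ependymal-gated and 0.467 CPM (7 UMIs) in microglia-gated cells. The ratio to microglia-gated cells was 935 (453 to 2327), and Htr2c UMIs were in 83.8% of choroid plexus-gated and 0.315% of microglia-gated cells.

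Otx2, the transcription factor gene, had 220 CPM in choroid plexus-gated cells, 32.3 CPM (25.7 to 40.1; 82 UMIs) in ependymal-gated and 0.133 CPM (2 UMIs) in microglia-gated cells. Its ratio to ependymal-gated cells was 6.80 (5.45 to 8.59), and that to microglia-gated cells, resting on 2 UMIs, was 1645 (455 to 13594). An Otx2 UMI was in 81.7% of choroid plexus-gated, 11.2% of ependymal-gated and 0.0901% of microglia-gated cells.

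Choroid plexus-gated cells, 10.4% of the cells kept, held 99.2% of all Ttr UMIs, 98.9% of those of Kl and of Htr2c, 98.5% of Wfdc2, 97.8% of Prlr and of Enpp2, 90.4% of Otx2 and 90.0% of Folr1. The 765 barcodes that passed several other gates, with 6657717 UMIs in all, held 339 Folr1, 82 Otx2 and 55 Prlr UMIs. For comparison, ependymal-gated cells held 560 Folr1 and 82 Otx2 UMIs, and B cell-gated cells 56 Prlr UMIs. The gate passed gradually at its edge. Ttr, which the gate did not use, was at 240 CPM in the 5690 cells with no Clic6 or Kcnj13 UMI and at 6907 CPM in the 123 cells with 1. Just inside the gate, the 25 cells with 2 UMIs had 31749 CPM, of which 14 also passed the ependymal gate, and the 14 cells with 3 UMIs had 149147 CPM. The 499 cells with 10 or more had 206448 CPM.

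RNA set free from broken cells is captured in every droplet, and RNA of 1 source keeps the ratio of its genes to each other. The UMIs of the 7 other genes in each gated type were therefore set against the number its Ttr UMIs would bring at the choroid plexus-gated ratio of gene to Ttr. In microglia-gated cells the observed numbers were 0.515 to 1.35 times the scaled ones, and the 95% interval held 1 for all 7 genes. The level in microglia-gated cells, used as the measure of free RNA, ran from 0.133 CPM for Otx2 to 18.8 CPM for Enpp2. For Ttr it was 233 CPM, but 476 of the 3496 Ttr UMIs were in 2 cells, and without these it was 202 CPM. The Otx2 level rests on 2 UMIs, with a wide interval of 0.0624 to 1.86 times the scaled number. An interval that holds 1 does not show that all UMIs of a gene in these cells were free RNA.

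**Figure D2:**
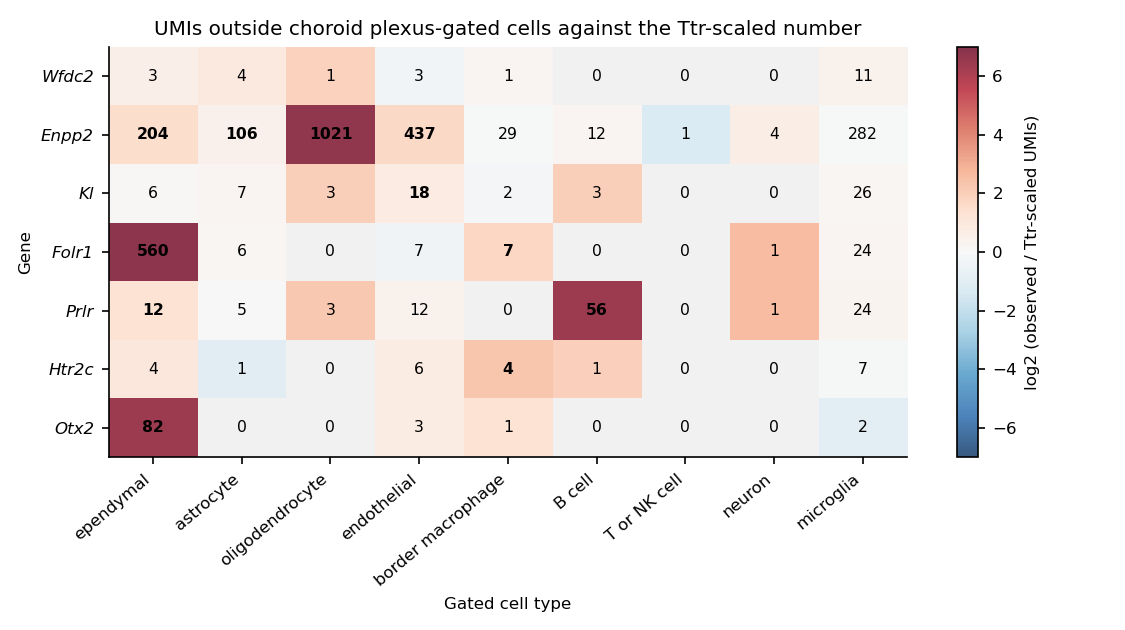
UMIs of the 7 other genes in gated types outside the choroid plexus, printed in each square, with the log2 ratio to the Ttr-scaled number as colour and grey where no UMI was seen. Bold numbers have a 95% interval above 1, and the 4 darkest squares are Folr1 (560 UMIs) and Otx2 (82) in ependymal, Enpp2 (1021) in oligodendrocyte and Prlr (56) in B cell-gated cells.

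In 4 places a gene exceeded the Ttr-scaled number more than 80-fold at the gates used. Folr1 in ependymal-gated cells was 113 times the scaled number (104 to 124) and Otx2 in the same cells 85.8 times (67.9 to 107). Enpp2 in oligodendrocyte-gated cells was 103 times (96.7 to 109) and Prlr in B cell-gated cells 84.9 times (64.1 to 110). The values in ependymal-gated cells depend on the choroid plexus gate. With a gate of at least 5 UMIs, Folr1 was 15.7 and Otx2 13.1 times the scaled number, since ependymal-gated cells then held 6887 Ttr UMIs in place of 861. With other gates of at least 2 UMIs Folr1 was 61.8 and Otx2 43.5 times the scaled number. Smaller excesses were seen for Enpp2 in endothelial-gated cells, at 3.16 times with 83.1 CPM, and in ependymal-gated cells, at 2.79 times. Enpp2 in astrocyte-gated cells was at 1.37 times, with 55 of its 106 UMIs in 1 cell. Prlr in ependymal-gated cells (12 UMIs), Kl in endothelial-gated cells (18), and Folr1 (7) and Htr2c (4) in border macrophage-gated cells had intervals above 1 with few UMIs. So did Kl, Enpp2 and Wfdc2 in the 9 fibroblast-gated cells, with 2, 7 and 1 UMIs.

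Genes through which the prolactin receptor signals were also measured in the 55 B cell-gated cells, with or without a Prlr UMI. Jak2, the kinase bound to the receptor, was at 9.52 CPM in choroid plexus-gated, 142 CPM in B cell-gated and 42.0 CPM in microglia-gated cells. Stat5b, a factor it activates, was at 13.1 CPM in choroid plexus-gated, 139 CPM in B cell-gated and 30.2 CPM in microglia-gated cells. Cish, a target of that factor, was at 53.2 CPM in choroid plexus-gated, 44.1 CPM in B cell-gated and 8.74 CPM in microglia-gated cells. The 437 ependymal-gated cells without an EGFP UMI had 84.6 CPM of Jak2, 33.8 CPM of Stat5b and 0.439 CPM of Cish, with Prlr at only 5.26 CPM. High Jak2 was thus also seen where Prlr was low, and signalling through Prlr in B cell-gated cells was not tested. The 55 B cell-gated cells had 35850 CPM of Jchain, the joining chain of secreted antibodies, a gene named after its values were seen. Ttr in them was at 372 CPM, and Folr1, Otx2 and Wfdc2 had no UMI, where 3 UMIs would give 9.45 CPM.

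Folr1 and Otx2 were both above the free-RNA number in ependymal-gated cells but were spread differently over them. Ependymal-gated cells were split, after the data were seen, by at least 3 UMIs of Npy, Rspo3 and Clec3b or of Col6a5, Nrxn3 and Krt15. Otx2 was at 96.3 CPM in 61 cells of the first kind and at 4.30 CPM in 212 cells of the second, a ratio of 22.4 (8.79 to 73.0). Folr1 was at 200 CPM in the first and 222 CPM in the second kind, a ratio of 0.900 (0.689 to 1.17), and Ttr at 406 CPM in the first and 243 CPM in the second. The interval for Otx2 lay above 1 and that for Folr1 held 1, and both cover counting error and not the spread over cells. The remaining ependymal-gated cells were 137 of neither kind, with 54.6 CPM of Otx2 and 168 CPM of Folr1, and 62 of both kinds, with 23.9 CPM of Otx2 and 293 CPM of Folr1.

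Within the 672 choroid plexus-gated cells the 8 genes varied to different extents. Over the cells, Ttr ran from 64160 CPM at the 5th percentile through a median of 190294 CPM to 318651 CPM at the 95th. The 75th percentile was above the 25th by 1.69-fold for Ttr, 1.96-fold for Enpp2, 1.97-fold for Folr1 and 2.06-fold for Kl. The difference was 2.75-fold for Wfdc2, 2.82-fold for Prlr, 3.46-fold for Otx2 and 3.86-fold for Htr2c, and low UMI numbers widen it: the median cell had 4 UMIs of Wfdc2, 9.5 of Prlr, 2 of Otx2 and 3 of Htr2c.

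**Figure D3:**
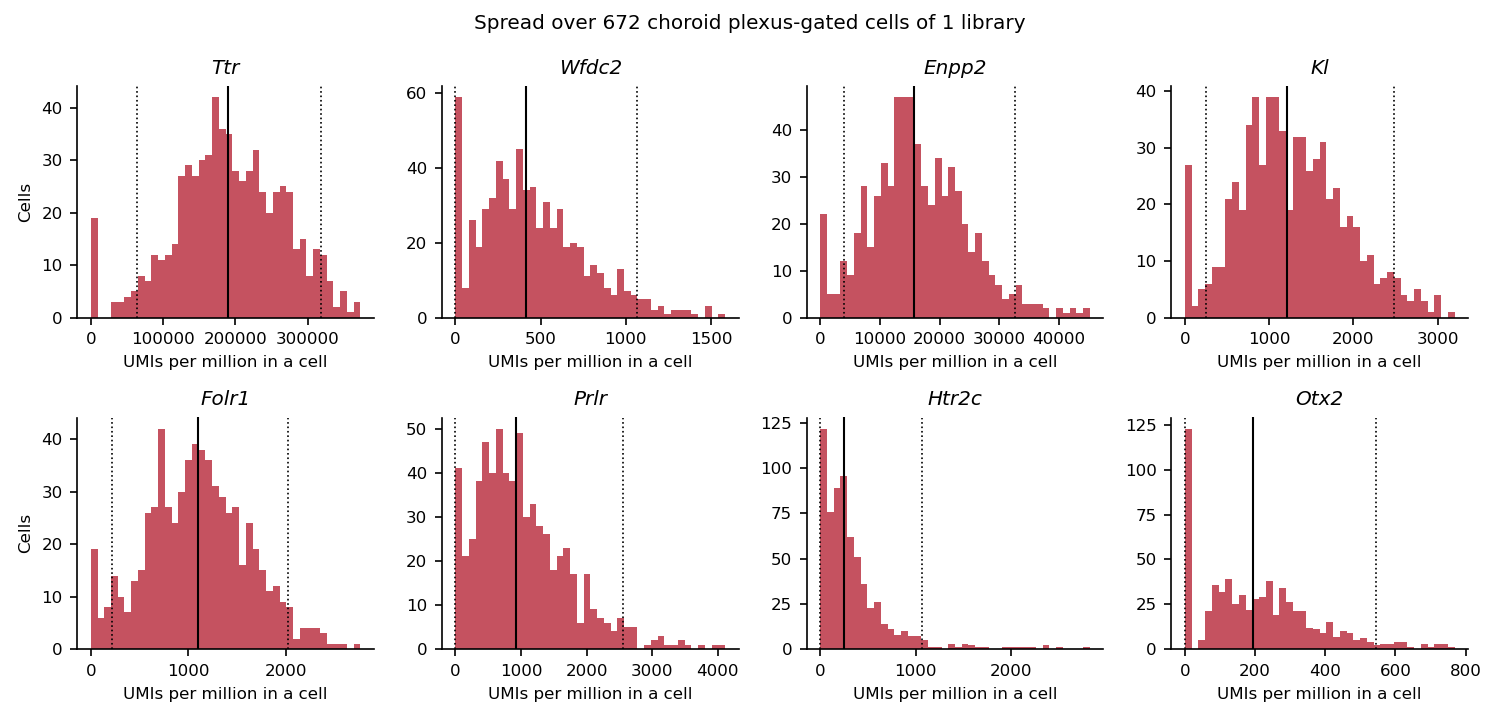
Number of choroid plexus-gated cells by level (CPM in the cell) for each of the 8 genes, up to the 99th percentile, with the median as a solid line and the 5th and 95th percentiles as dotted lines. Htr2c has a long right tail, and Otx2 is at 0 in 123 of 672 cells.

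Counting error was set aside by thinning 665 cells to 2000 UMIs, where a gene with the same level in every cell has a variance equal to its mean. The variance beyond the mean, divided by the mean squared, was 1.59 for Htr2c and 0.410 for Prlr. It was 0.337 for Wfdc2, 0.281 for Enpp2, 0.268 for Otx2, 0.225 for Kl, 0.158 for Ttr and 0.126 for Folr1. Htr2c thus varied the most of the 8 by this measure, and it did so too in the 607 thinned cells with at least 5 gate UMIs, at 1.59, where the other 7 genes had 0.109 to 0.355. The 67 cells with the highest Htr2c levels held 49.4% of its UMIs and 13.7% of all UMIs. For Prlr the 67 highest cells held 26.6% of its UMIs, and for Kl 16.4%.

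Htr2c, Prlr and Enpp2 were higher in cells with a larger mitochondrial share. In the quartile of cells with the largest share, 4.95% to 13.6%, Htr2c was at 654 CPM, against 206 CPM in the quartile with the smallest share of up to 2.39%, a ratio of 3.18 (2.83 to 3.58). Prlr was at 1552 CPM in the top and 642 CPM in the lowest quartile, a ratio of 2.42 (2.26 to 2.59), and Enpp2 at 21474 CPM in the top and 10648 CPM in the lowest, a ratio of 2.02. Kl, Wfdc2, Folr1 and Ttr had ratios of 1.34 to 1.55, and Otx2 one of 0.990 (0.857 to 1.14). The gate genes Kcnj13 and Clic6 had ratios of 1.37 (1.27 to 1.48) and 1.08 (0.993 to 1.17). Among the 608 cells with at least 5 gate UMIs the same ratios were 3.14 for Htr2c, 2.27 for Prlr, 1.81 for Enpp2 and 0.932 for Otx2.

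**Figure D4:**
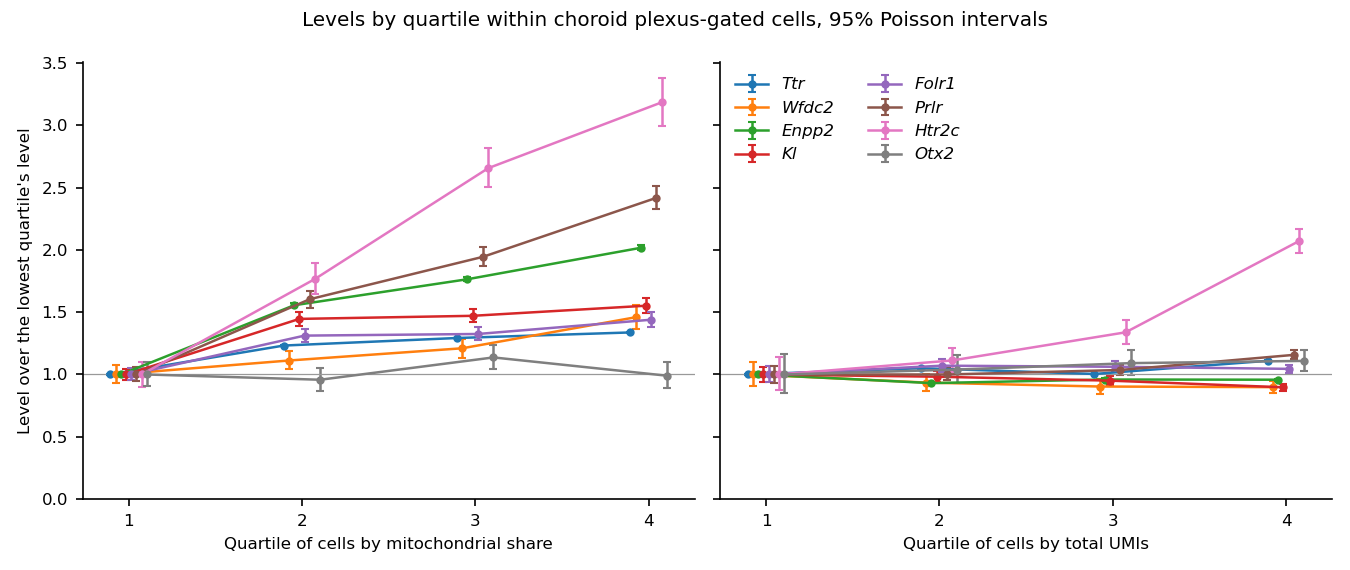
Level of each gene over its level in the lowest quartile, by quartile of choroid plexus-gated cells (168 each) ranked by mitochondrial share (left) and by total UMIs (right), with 95% Poisson intervals. Htr2c reaches 3.18 and Prlr 2.42 in the top quartile by mitochondrial share while Otx2 stays at 0.990, and by total UMIs Htr2c reaches 2.07.

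By total UMIs, the deepest quartile of cells was above the shallowest for Htr2c by a ratio of 2.07 (1.81 to 2.38), and the other 7 genes had ratios of 0.897 to 1.16. Trpm3, a cation channel gene of this epithelium named after its values were seen, moved like Htr2c, with ratios of 3.29 by mitochondrial share and 2.89 by total UMIs. The intervals of the quartile ratios cover counting error and not the spread over cells. The part of depth and mitochondrial share in these differences was not tested.

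Across the 665 thinned cells the strongest rank correlations, given as a description, were those of Enpp2 with Prlr (Spearman's rho 0.40), with Ttr (0.39) and with Kl (0.37), and that of Ttr with Folr1 (0.38). Otx2 had values of -0.05 to 0.10 with the other 7 genes. The points share 1 library, and low counts pull such values toward 0.

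The reporters that the sort selected were seen in a minority of choroid plexus-gated cells, and tdTomato in a smaller share of microglia-gated and ependymal-gated cells. Hopx, the target of the vector, was at 317 CPM in choroid plexus-gated cells and had 30 UMIs in all microglia-gated cells, and with no library without the vector its knockdown could not be checked. tdTomato had 178 UMIs in 84 of 672 cells and EGFP 11 UMIs in 10 cells, and no cell had both. The share of cells with tdTomato was 12.5% in choroid plexus-gated and 0.721% in microglia-gated cells. It was 5.95% in the 437 ependymal-gated cells without EGFP and 8.57% in the 35 with EGFP. No microglia-gated cell had an EGFP UMI. In cells with tdTomato Htr2c was at 335 CPM, against 449 CPM in cells without it (ratio 0.745, 0.657 to 0.841), and Prlr at 894 CPM in cells with and 1132 CPM in cells without it (ratio 0.790, 0.732 to 0.851). The other 6 genes had ratios of 0.902 to 1.10. Median depth was 9676 UMIs in cells with tdTomato and 11301 in cells without. tdTomato itself was at 13.1 CPM in the top and 46.6 CPM in the lowest quartile by mitochondrial share, a ratio of 0.282, the opposite of Htr2c and Prlr. The intervals of the ratios by tdTomato cover counting error and not the spread over cells, and 67 cells held 49.4% of all Htr2c UMIs. They therefore do not show whether the groups of cells differ beyond that spread. The part of depth and mitochondrial share in the differences by tdTomato was not tested. In the 10 cells with EGFP, Ttr was at 112306 CPM, against 199014 CPM in the 662 others, and 1 of the 10 had no Ttr UMI. Nnat, a gene at 2092 to 3918 CPM in the ependymal-gated sets above and named after its values were seen, was at 409 CPM in the 10 cells, all in 2 of them, against 73.6 CPM in the others. Its part in the lower Ttr level was not tested.

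Genes around the 8 in their pathways were taken from 11 lists with 135 genes and set against ependymal-gated cells, where 5.29% of genes tested were at least 4-fold higher and 25.9% at least 4-fold lower in choroid plexus-gated cells. The median log2 ratio over all genes tested was -0.96. A list's count is a description of this library and was not tested as a set. The lower counts of the lists for thyroid hormone and retinol, prolactin signalling, the klotho system, folate and other hormone receptors lie near that 25.9%, and nothing is read from them. The same holds for higher counts of 0 or 1, which in lists this short lie near the 5.29%. These are the higher counts for the klotho system, lysophosphatidic acid, serotonin, transcription factors, folate and other hormone receptors.

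**Figure D5:**
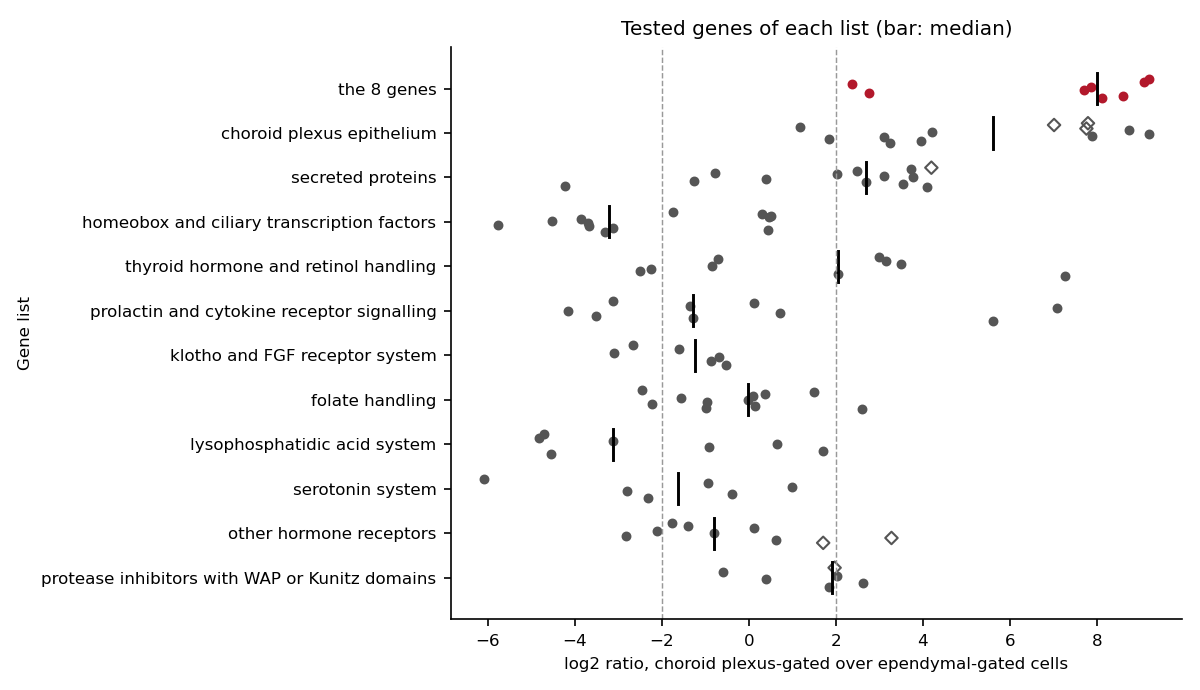
Log2 ratio of choroid plexus-gated over ependymal-gated cells for the 8 genes (red) and for the tested genes of each list (grey), with list medians as bars and 4-fold thresholds as dashed lines. Open diamonds are bounds where one group had no UMI, set to 3 UMIs over the group, and the median is 7.99 for the 8 genes and -3.21 for homeobox and ciliary transcription factors.

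Genes that handle the hormone and vitamin carried by transthyretin formed a list in which many genes encode transporters. Of 9 tested genes for thyroid hormone and retinol handling, 5 were at least 4-fold higher and 2 at least 4-fold lower in choroid plexus-gated cells, with a median log2 ratio of 2.06. Stra6, the cell-surface receptor for retinol-binding protein, was at 60.7 CPM in choroid plexus-gated and 0.394 CPM (1 UMI) in ependymal-gated cells, a ratio of 154 (27.6 to 6106). The organic anion transporter genes Slco1a4 (98.2 CPM in choroid plexus-gated and 8.66 CPM in ependymal-gated cells) and Slco1c1, a thyroxine transporter (373 CPM in choroid plexus-gated and 41.7 CPM in ependymal-gated cells), had ratios of 11.3 and 8.94. The thyroid hormone receptor genes Thrb (21.4 CPM in choroid plexus-gated and 120 CPM in ependymal-gated cells) and Thra (47.6 CPM in choroid plexus-gated and 226 CPM in ependymal-gated cells) had ratios of 0.178 and 0.211.

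Of 13 tested genes for other secreted proteins, 9 were at least 4-fold higher and 1 lower, with a median of 2.69. The growth factor gene Igf2 had 168 UMIs in choroid plexus-gated and none in ependymal-gated cells and was at least 18.3-fold higher, counting that group at 3 UMIs. Ptgds, a prostaglandin synthase found in cerebrospinal fluid, was at 2477 CPM in choroid plexus-gated and 145 CPM in ependymal-gated cells (ratio 17.1), and the coagulation factor gene F5 at 596 CPM in choroid plexus-gated and 43.7 CPM in ependymal-gated cells (ratio 13.6). Cp, which encodes ceruloplasmin, was at 12.6 CPM in choroid plexus-gated and 234 CPM in ependymal-gated cells (ratio 0.0538), and Bmp6 at 71.0 CPM in choroid plexus-gated and 169 CPM in ependymal-gated cells (ratio 0.421). Of 6 tested protease inhibitor genes with WAP or Kunitz domains, 2 were at least 4-fold higher and none lower, and over the 11 other settings the higher count ran from 0 to 4. The 2 were Spint1, at 7.34 CPM in choroid plexus-gated and 1.18 CPM in ependymal-gated cells (ratio 6.21), and Wfdc17, at 3.22 CPM in choroid plexus-gated and 0.787 CPM in ependymal-gated cells, a ratio of 4.09 (1.02 to 35.6) that rests on 2 UMIs in ependymal-gated cells. The lowest were Slpi (ratio 1.31) and Wfdc3 (ratio 0.666), and Wfdc1, with 36 UMIs in choroid plexus-gated and none in ependymal-gated cells, was at least 3.92-fold higher.

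Of 9 tested signalling genes beside Prlr, 2 were at least 4-fold higher and 3 lower. Cish, an inhibitor of cytokine signalling named above, was at 53.2 CPM in choroid plexus-gated and 0.394 CPM (1 UMI) in ependymal-gated cells (ratio 135, 24.1 to 5345), and the leptin receptor gene Lepr at 38.5 CPM in choroid plexus-gated and 0.787 CPM in ependymal-gated cells (ratio 48.9). Socs2, another feedback inhibitor, had a ratio of 1.64. Socs1 (1.67 CPM in choroid plexus-gated and 29.9 CPM in ependymal-gated cells) and Socs3 (16.3 CPM in choroid plexus-gated and 187 CPM in ependymal-gated cells) had ratios of 0.0559 and 0.0874.

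Of 6 tested genes of the klotho and FGF receptor system, none was at least 4-fold higher and 2 were lower. Fgfr3 (3.86 CPM in choroid plexus-gated and 33.1 CPM in ependymal-gated cells) and Fgfr1, the receptor that klotho joins to bind FGF23 (39.3 CPM in choroid plexus-gated and 246 CPM in ependymal-gated cells), had ratios of 0.117 and 0.159. The proteases that can shed klotho, Bace1, Adam10 and Adam17, had ratios of 0.692, 0.618 and 0.547. In folate handling, 1 of 11 tested genes was at least 4-fold higher, Ggh, the enzyme that trims folate side chains, at 359 CPM in choroid plexus-gated and 58.7 CPM in ependymal-gated cells (ratio 6.11), and 2 were lower. The folate carrier genes Slc19a1 and Slc46a1 had ratios of 2.84 and 1.30, and Folr2 (1.29 CPM in choroid plexus-gated and 7.09 CPM in ependymal-gated cells) and Mtr (10.2 CPM in choroid plexus-gated and 47.2 CPM in ependymal-gated cells) had ratios of 0.182 and 0.215.

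In the lysophosphatidic acid system, none of 7 tested genes was at least 4-fold higher and 4 were lower, with a median of -3.11. The receptor genes Lpar3 (1.29 CPM in choroid plexus-gated and 36.6 CPM in ependymal-gated cells) and Lpar1 (3.99 CPM in choroid plexus-gated and 104 CPM in ependymal-gated cells) had ratios of 0.0351 and 0.0384, and the phosphatase gene Plpp2 had the highest ratio of 3.25, followed by Lpar6 (1.57) and Plpp1 (0.534). In the serotonin system, none of 6 tested genes was at least 4-fold higher and 3 were lower. Htr5b, another serotonin receptor gene, was at 1.54 CPM in choroid plexus-gated and 104 CPM in ependymal-gated cells (ratio 0.0148) and Gnaq, a G protein subunit through which Htr2c signals, at 27.5 CPM in choroid plexus-gated and 193 CPM in ependymal-gated cells (ratio 0.143). The amine-degrading enzyme genes Maob and Maoa had ratios of 1.98 and 0.522, and Plcb1 had one of 0.768.

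Of 9 tested genes for other hormone receptors, 1 was at least 4-fold higher and 2 lower. Over 11 other settings that kept the 4-fold threshold these counts ran from 0 to 2 and from 1 to 6, and the higher count was 0 without choroid plexus-gated cells that passed another gate. Crhr2, a receptor for urocortins, had 89 UMIs in choroid plexus-gated and none in ependymal-gated cells and was at least 9.70-fold higher, and Mc3r, a melanocortin receptor gene, with 30 UMIs in choroid plexus-gated and none in ependymal-gated cells, was at least 3.27-fold higher. Calcrl had a ratio of 1.55. Nr3c2, the mineralocorticoid receptor gene, was at 12.7 CPM in choroid plexus-gated and 89.8 CPM in ependymal-gated cells (ratio 0.142) and Esr1 at 1.29 CPM in choroid plexus-gated and 5.51 CPM in ependymal-gated cells (ratio 0.233).

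Of 12 tested homeobox and ciliary transcription factor genes beside Otx2, none was at least 4-fold higher and 7 were lower, with a median of -3.21. Msx1 (129 CPM in choroid plexus-gated and 91.0 CPM in ependymal-gated cells), Msx2 and Gmnc had ratios of 1.42, 1.37 and 1.37. Meis2 (4.76 CPM in choroid plexus-gated and 257 CPM in ependymal-gated cells) and Pax6 (2.96 CPM in choroid plexus-gated and 68.1 CPM in ependymal-gated cells) had ratios of 0.0185 and 0.0435. Otx1, the paralogue of Otx2, was at 6.05 CPM in choroid plexus-gated and 20.1 CPM in ependymal-gated cells (ratio 0.301). Of the choroid plexus epithelium list, Car12, Prr32 and Aqp1 had the highest ratios, with 1 UMI each in ependymal-gated cells and levels of 229, 168 and 93.4 CPM in choroid plexus-gated cells. Calml4 and Slc4a2 had the lowest ratios, 2.24 and 3.59.

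The genes outside the 8 whose levels ran most alike were sought over 10 gated types with at least 20 cells, among 12307 genes reaching 20 CPM in any, by Pearson's r of log2(CPM + 1). For Ttr they were Mfrp (0.99), Aqp1 (0.99) and Hs6st2 (0.97), and for Wfdc2 Aqp1 (0.98), Mfrp (0.98) and Car12 (0.97). Prcd and Slc16a8, at 0.96 to 0.98, came first for both Kl and Htr2c, followed by the gate gene Clic6 (0.94) for Kl and by Cox5a (0.97) for Htr2c. Cells with Clic6 UMIs were placed by the gate itself, so its value follows from the gate and nothing is read from it. Folr1 was nearest to Lbp (0.98), Fam81a (0.97) and Col8a2 (0.96), and Otx2 to Plk5 (0.99), Npr3 (0.99) and Myo5b (0.98), all genes whose highest groups were choroid plexus-gated and ependymal-gated cells. Enpp2 was nearest to Wdr72 (0.95), Mest (0.95) and Smdt1 (0.94), which like it were second in oligodendrocyte-gated cells, and Prlr to Ndufs3 (0.96), Uqcrq (0.95) and Ogfod3 (0.93), which were high in choroid plexus-gated and B cell-gated cells. Some of these rankings rest on very few UMIs outside the choroid plexus gate. Mfrp, Aqp1, Hs6st2 and Car12 were second in astrocyte-gated cells at 1.82 to 5.46 CPM, where 3 UMIs would give 5.46 CPM. The astrocyte values of Ttr and Wfdc2 rest on few cells too. For each gene, 2 astrocyte-gated cells held most or all of its UMIs, 753 of 913 for Ttr and 4 of 4 for Wfdc2. Prcd and Slc16a8 were second in B cell-gated cells at 3.15 CPM, where 3 UMIs would give 9.45 CPM. The 10 points share 1 library and its free RNA, and these values are a description.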

How the data were processed

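The values used are raw UMI counts, deposited as a sparse matrix. Cell Ranger 8.0.1 and the build GRCm39 are named in the submitters' processing notes, which give no version of the gene annotation. Barcodes were kept with at least 500 genes and at most 15% mitochondrial UMIs; 187 failed this, which left 41760631 UMIs with a median of 5564 per barcode.

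Every barcode with at least 2 UMIs of Clic6 and Kcnj13 was choroid plexus-gated. Any other type needed at least 3 UMIs of its own markers and no other gate passed. Of 62 gate markers, 61 were among the features. For each type, a gene's UMIs over all its cells were divided by the type's total. Levels have exact 95% Poisson intervals, ratios exact binomial ones and shares of cells Clopper-Pearson ones. UMIs give counting precision only. A group at 0 was set to 3 UMIs, so that its ratio is a bound. A gene was tested with at least 20 UMIs over both groups and called at 4-fold. Doublets were not removed for the values given; an alternative removed those called by Scrublet at an expected rate of 0.05. Genes named from a list are the 3 with the highest and 2 with the lowest ratio to ependymal-gated cells, and any others were chosen after their values were seen. The 8 genes, the gates and the lists were chosen with earlier results of these data known. Ratios and calls were run on simulated UMI sums drawn with counting error only, which hold no spread over cells and so do not bear on it. Tools were Python 3.11.15, numpy 2.4.6, scipy 1.17.1, pandas 2.3.3, scanpy 1.11.5 and matplotlib 3.10.9.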

Additional observations from a re-analysis of the deposited data

How the results depend on the processing

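The 8 genes were all at least 4-fold higher in choroid plexus-gated than in microglia-gated cells under all 14 other settings of cell filter, doublets, gates, weighing, threshold and totals, of which 2 were added after the data were seen. Against ependymal-gated cells the same held except at an 8-fold threshold, where 6 of 8 passed. Leaving out choroid plexus-gated cells that passed another gate brought their number to 215, against 672, and the number of genes at least 4-fold higher than in microglia-gated cells to 1599, against 2485, or 35.6% of all calls against 48.2%. Against ependymal-gated cells 649 genes were 4-fold higher, 1509 passed a 2-fold and 320 an 8-fold threshold. With Ttr, a large part of the choroid plexus-gated total, left out of the totals, every level in choroid plexus-gated cells was 1.25 times as high, the median log2 ratio of all genes tested was 0.01 in place of -0.30 against microglia-gated and -0.64 in place of -0.96 against ependymal-gated cells, and the counts of genes against ependymal-gated cells became 2 higher and 1 lower for other hormone receptors, 1 higher for the lysophosphatidic acid system, 4 higher for WAP or Kunitz inhibitors, and 1 lower each for thyroid hormone and retinol and for folate handling. Prlr in astrocyte-gated over microglia-gated cells had a ratio of 5.68, on 5 UMIs in astrocyte-gated cells, and with other gates of at least 5 UMIs it turned to 0.920 (0.0225 to 5.58). The cause of these moves was not tested. Over 11 other settings that kept the 4-fold threshold, the counts of higher genes ran from 0 to 2 for other hormone receptors, from 0 to 4 for WAP or Kunitz inhibitors, from 0 to 1 for the lysophosphatidic acid system, from 4 to 5 for thyroid hormone and retinol handling and from 8 to 9 for secreted proteins. Those of lower genes ran from 1 to 6 for other hormone receptors, from 2 to 5 for the serotonin system, from 1 to 3 for thyroid hormone and retinol, from 1 to 2 for folate handling and secreted proteins and from 0 to 1 for the inhibitors. Over 9 settings of filter, doublets and gates, the excess over the Ttr-scaled number ran from 15.7 to 142 for Folr1 and 13.1 to 122 for Otx2 in ependymal-gated cells, from 96.3 to 109 for Enpp2 in oligodendrocyte-gated cells and from 76.4 to 96.9 for Prlr in B cell-gated cells. Over the settings, the ratio to microglia-gated cells ran from 103 to 174 for Folr1 and from 125 to 451 for Otx2 in ependymal-gated cells, from 65.7 to 102 for Enpp2 in oligodendrocyte-gated cells and from 75.6 to 166 for Prlr in B cell-gated cells. No paired analysis was possible because the library is alone in its group. Depth limits the low values most: Otx2 in microglia-gated cells rests on 2 UMIs.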
